A study of Arabidopsis thaliana with 30 samples.

Results

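WRKY transcription factors are a plant family of DNA-binding proteins. The 48 Arabidopsis thaliana WRKY genes described here were taken from a fixed list of loci, out of 33602 loci in the count tables, and a gene was kept when it had at least 10 counts in at least 3 of the 15 libraries. By that rule 39 were kept. WRKY34 had no count in any library, and the other 8 genes below the limit were WRKY8, WRKY10, WRKY29, WRKY31, WRKY45, WRKY55, WRKY65 and WRKY75. At the edge of the rule, the third-highest count of a gene was 10 for WRKY41 and for WRKY47 and 11 for WRKY42, just inside, and 9 for WRKY65 and 8 for WRKY29 and for WRKY8, just outside.

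The study used inflorescences of plants that carry the pSHP2-GAL4 and pUAS-3xYpet transgenes, crossed into an ap1; cal; pAP1::AP1:GR background, and all groups shared this genotype. In these plants the promoter of SHATTERPROOF2 (SHP2), a gene known for its expression in the developing gynoecium, drives a yellow fluorescent protein (YFP) through the GAL4 and UAS pair, so YFP-positive cells are those in which this promoter was active. Protoplasts, cells freed of their walls, were separated by fluorescence-activated cell sorting into reporter-positive cells (YFP-POS, n = 3), reporter-negative cells (YFP-NEG, n = 4) and cells sorted without regard to YFP (ALL-SORT, n = 4), and intact inflorescences frozen in liquid nitrogen served as the unsorted group (NO-SORT, n = 4). The replicates are called biological in the labels, which name no inducing agent, time point or plant age and do not say whether replicates came from separate plantings, so p-values measure the spread between these libraries.

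WRKY proteins bind DNA through a domain that holds the residues WRKYGQK followed by a zinc finger, and their best known site is the W box, TTGACC or TTGACT. Many of them are switched on within minutes of a microbial signal, a wound or another stress, downstream of receptor kinases and mitogen-activated protein kinase (MAPK) cascades, and many WRKY genes carry W boxes before their own start and are targets of WRKY proteins. A smaller number act in development, among them regulators of trichomes, pollen, seeds, stem cell walls and flowering time. The family is divided by the number of domains and the type of zinc finger into groups I, II (IIa to IIe) and III. In the coding sequences of RefSeq, 11 of the 12 listed group I genes encoded the heptad 2 times and all 7 listed group III genes encoded the C2HC type of finger, and WRKY10 was the group I gene with the heptad once.

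The DNA before the annotated start was read for all members because WRKY genes are themselves known W box genes. The 4 windows below are the 250 bases before the start of WRKY40 (AT1G80840), WRKY33 (AT2G38470), WRKY30 (AT5G24110) and WRKY53 (AT4G23810), the strongest sorting responder and the responders with the most boxes among the 6 largest, from RefSeq assembly TAIR10.1. They lie at chr1:30383311-30383560 on the plus strand, chr2:16107985-16108234 on the plus strand, chr5:8154711-8154960 on the minus strand and chr4:12393983-12394232 on the minus strand. They are written 5′ to 3′ towards the gene, with capitals for TTGACC or TTGACT on the strand shown and for their complements GGTCAA and AGTCAA.
WRKY40: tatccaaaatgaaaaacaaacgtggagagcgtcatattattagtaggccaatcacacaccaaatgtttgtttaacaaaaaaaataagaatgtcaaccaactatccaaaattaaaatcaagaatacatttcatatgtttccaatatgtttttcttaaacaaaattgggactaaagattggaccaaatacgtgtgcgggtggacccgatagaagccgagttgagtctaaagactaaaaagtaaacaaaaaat
WRKY33: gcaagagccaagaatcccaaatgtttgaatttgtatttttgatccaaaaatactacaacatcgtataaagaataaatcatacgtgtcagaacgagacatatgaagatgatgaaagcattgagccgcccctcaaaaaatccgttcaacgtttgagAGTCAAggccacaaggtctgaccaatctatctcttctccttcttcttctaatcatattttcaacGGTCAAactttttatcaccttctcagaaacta
WRKY30: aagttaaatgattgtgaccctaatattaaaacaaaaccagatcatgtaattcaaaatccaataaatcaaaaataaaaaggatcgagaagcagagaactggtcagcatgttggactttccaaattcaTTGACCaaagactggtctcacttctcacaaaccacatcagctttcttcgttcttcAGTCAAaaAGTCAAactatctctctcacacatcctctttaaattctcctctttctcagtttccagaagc
WRKY53: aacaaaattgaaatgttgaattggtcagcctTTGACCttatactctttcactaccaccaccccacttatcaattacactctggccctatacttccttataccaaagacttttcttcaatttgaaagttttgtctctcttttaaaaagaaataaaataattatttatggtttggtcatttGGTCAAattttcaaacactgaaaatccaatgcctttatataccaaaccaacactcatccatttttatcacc
The WRKY40 window held no W box in this spelling. The WRKY30 window held 3, at 124, 69 and 61 bases before the start, and the windows of WRKY33 and WRKY53 held 2 each.

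Across the family, 17 of 48 windows (35.4%) held at least 1 W box and 9 (18.8%) held at least 2, counted on both strands, where a position can match only one of the spellings. Over the 26699 protein-coding loci of the tables the shares were 28.5% and 6.2%. These matches describe letters in a window and no binding was measured.

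Total counts ranged from 12644721 in ALL-SORT replicate 3 to 21027032 in ALL-SORT replicate 4. Levels are given as counts per 1000000 (CPM), with library sizes scaled over all 15 libraries, in the order of replicates 1 to 4 (1 to 3 for YFP-POS). ALL-SORT replicate 4 stood apart: over all genes its log2 CPM correlated at r = 0.978 with NO-SORT replicate 1 and at 0.944 to 0.963 with the other ALL-SORT libraries. It had the lowest ALL-SORT level for 17 of the 17 members called higher in ALL-SORT, at 15.4% to 72.6% (median 37.1%) of the mean of replicates 1 to 3, against a median of 99.1% over the 16 members classed stable. The 14 stress genes outside the family summed to 6418, 9068, 9205.0 and 1939 CPM in the ALL-SORT libraries and to 151.1 to 239.1 CPM in NO-SORT, so this library was low for them too. The epidermis genes ATML1 and PDF1 summed to 1205 to 1873 CPM in NO-SORT, 636, 728 and 823 CPM in ALL-SORT replicates 1 to 3 and 1540 CPM in replicate 4. Whether it holds unsorted material was not tested, and results are given with and without it. As a check of the labels of the sorted fractions, SHP2 itself averaged 1.84 ± 0.611 CPM in the 4 YFP-NEG libraries and 36.1 ± 4.39 CPM in the 3 YFP-POS libraries (SD), and all 5 genes listed for the medial gynoecium were higher in YFP-POS.

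ALL-SORT was set against NO-SORT to see what making and sorting protoplasts does to gene expression, and cell wall digestion, sorting and the different collection of the material cannot be told apart in this design. Of the 34 members tested, 17 were called higher in ALL-SORT at an adjusted p under 0.05 by edgeR, 0 were called lower and 17 were not called. Over all 18733 genes tested, 9.84% (1844) were called higher and 3.6% (674) lower, or 1480 and 1265 genes with library-total scaling and 1607 and 1100 with upper-quartile scaling. The median log2 fold change was 0.53 over the members and -0.04 over all genes. By group, the counts called higher were 5 of 5 tested in group III, 2 of 3 in group IIa, 4 of 7 in group IId, 2 of 5 in group IIc, 2 of 9 in group I, 1 of 4 in group IIe and 1 of 1 in group IIb, with no test between groups. The sixth group III gene kept, WRKY41, was too low for the test (means of 0.335 CPM in NO-SORT and 0.347 CPM in ALL-SORT), and with a wider filter it was not called (log2 fold change 0.09, SE 0.71, edgeR adjusted p = 0.941). Of the 17 members not called, 1 was lower at an unadjusted p under 0.05. DESeq2 and limma-voom also called 0 lower. Library-total scaling, upper-quartile scaling and the fit without ALL-SORT replicate 4 each called 1 lower, WRKY3. The libraries of the 2 groups did not overlap for 17 of the 17 called members. These members were called on the same libraries, and the share without overlap over all called genes was not counted.

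**Figure D1:**
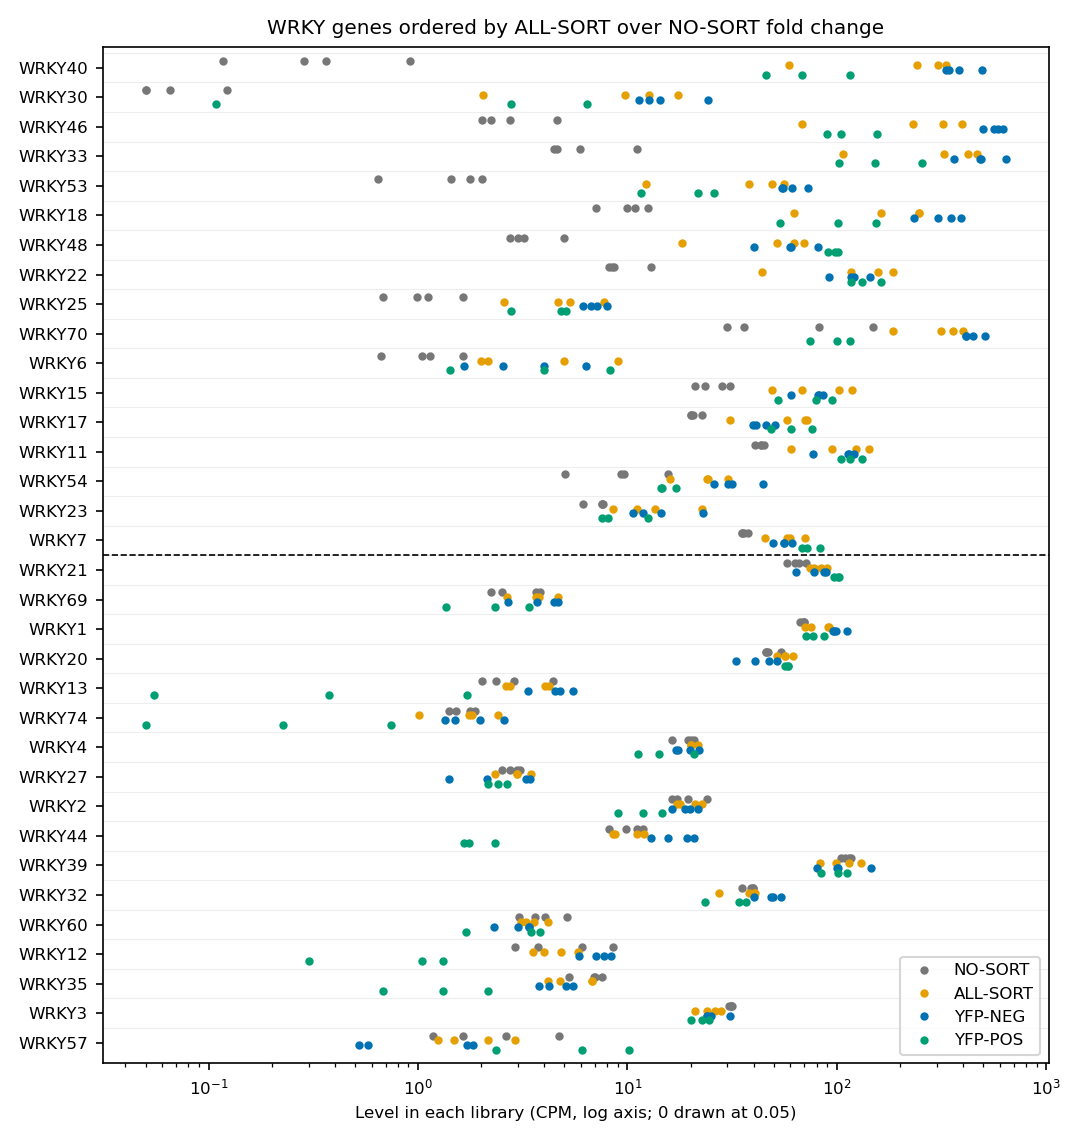
Level of each tested WRKY gene in every library (CPM, log axis, 0 drawn at 0.05), one dot per library and one colour per group, with genes in the order of their ALL-SORT over NO-SORT fold change and a dashed line below the 17 genes called higher in ALL-SORT. WRKY40 runs from 0.117 CPM in a NO-SORT library to 492 CPM in a YFP-NEG library. Below the line WRKY44 and WRKY12 stand apart in YFP-POS, and WRKY57 is higher in YFP-POS than in YFP-NEG.

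Group IIa holds WRKY18, WRKY40 and WRKY60, leucine-zipper WRKY proteins that bind one another and are known to restrain defence genes. WRKY40 was nearly absent from intact inflorescences, at 0.918, 0.285, 0.365 and 0.117 CPM in the NO-SORT libraries, and stood at 241.5, 303, 333.5 and 59.3 CPM in ALL-SORT. Every ALL-SORT library was far above every NO-SORT library, with ALL-SORT replicate 4 the lowest of its group and NO-SORT replicate 1 the highest of its own. The rise was the largest in the family (log2 fold change 9.14, SE 0.70, edgeR adjusted p = 2.92e-04), and was 9.46 without ALL-SORT replicate 4 and 10.13 when NO-SORT replicate 1 was left out as well. In raw counts it held 12900 over the ALL-SORT libraries and 27 over NO-SORT, a depth-scaled ratio of 517.5 (95% interval 355.5 to 785.6, for counting error only). WRKY18 stood at 12.5, 7.07, 10.9 and 9.96 CPM in NO-SORT and 162, 246, 247 and 62.2 CPM in ALL-SORT (log2 fold change 4.16, SE 0.42, edgeR adjusted p = 3.34e-04). WRKY60 is the exception in the group: its 3.61, 4.05, 3.04 and 5.15 CPM in NO-SORT and 3.1, 4.19, 3.56 and 3.26 CPM in ALL-SORT overlapped, and the difference was not called (log2 fold change -0.15, SE 0.23, edgeR adjusted p = 0.662, 95% interval -0.66 to 0.35). WRKY18 and WRKY60 encode proteins that are 70.2% identical. Without ALL-SORT replicate 4 the log2 fold change of WRKY18 was 4.44.

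Group III includes WRKY46, WRKY53, WRKY54 and WRKY70, known from salicylic acid signalling and leaf senescence, and WRKY30, known from oxidative stress and senescence. WRKY46 stood at 4.59, 2.74, 2.01 and 2.23 CPM in NO-SORT and 395, 230.4, 319.8 and 67.8 CPM in ALL-SORT (log2 fold change 6.47, SE 0.57, edgeR adjusted p = 2.92e-04). WRKY53 stood at 1.44, 1.77, 2.01 and 0.644 CPM and 38, 55.6, 48.9 and 12.3 CPM in the same order (log2 fold change 4.73, SE 0.50, edgeR adjusted p = 3.65e-04). For both genes ALL-SORT replicate 4 was the lowest ALL-SORT library and still above every NO-SORT library. WRKY30 had 3 counts in all over the NO-SORT libraries and 569 over ALL-SORT, a ratio of 205.4 with a counting interval of 69.9 to 999.2, and its ALL-SORT levels were 9.78, 12.7, 17.5 and 2.05 CPM (log2 fold change 7.63, SE 0.90, edgeR adjusted p = 5.59e-04). Without ALL-SORT replicate 4 the log2 fold changes were 6.79 for WRKY46, 5.02 for WRKY53 and 7.97 for WRKY30. WRKY30 and WRKY40 passed the filter on low counts through the sorted libraries, so their place among the tested genes already required a high sorted level.

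WRKY70 and WRKY54, whose proteins are 56.1% identical, differed from these genes in being present before sorting. WRKY70 stood at 148, 35.9, 81.7 and 29.8 CPM in NO-SORT, with replicates 1 and 3 above replicates 2 and 4, and at 359.7, 399.8, 314 and 185 CPM in ALL-SORT. Its lowest ALL-SORT library, replicate 4, was above the highest NO-SORT library (log2 fold change 2.10, SE 0.48, edgeR adjusted p = 0.0193). That call was lost without NO-SORT replicate 2, NO-SORT replicate 3 or ALL-SORT replicate 1 (adjusted p up to 0.0568 by edgeR) and the log2 fold change was 2.88 without ALL-SORT replicate 4 and NO-SORT replicate 1. WRKY54 stood at 15.7, 5.02, 9.3 and 9.61 CPM in NO-SORT and 30.3, 23.9, 24.3 and 16 CPM in ALL-SORT, a smaller step (log2 fold change 1.27, SE 0.31, edgeR adjusted p = 0.0266) that was not called in 6 of 18 alternative settings.

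In group I, WRKY33 and WRKY25 were called higher and the remaining 7 tested genes were not. WRKY33, a substrate of the kinases MPK3 and MPK6 that is needed for resistance to necrotrophic fungi, stood at 11.1, 4.45, 5.96 and 4.63 CPM in NO-SORT and 326, 423, 468 and 106.5 CPM in ALL-SORT (log2 fold change 5.68, SE 0.52, edgeR adjusted p = 2.92e-04). WRKY25, known from heat and salt responses, stood at 0.984, 0.684, 1.64 and 1.11 CPM in NO-SORT and 4.66, 5.34, 7.7 and 2.56 CPM in ALL-SORT (log2 fold change 2.19, SE 0.39, edgeR adjusted p = 0.00537). Neither gene's groups overlapped, and ALL-SORT replicate 4 was lowest for both. WRKY26, the closest listed relative of WRKY33 (59.0% identical in protein), is another heat-response gene and was at 0, 0.114, 0.79 and 0 CPM in NO-SORT and 1.09, 0.811, 0.579 and 0.233 CPM in ALL-SORT, too low for this test. Without ALL-SORT replicate 4 the log2 fold changes were 5.97 for WRKY33 and 2.42 for WRKY25.

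WRKY22 (group IIe), known as a late step of the MAPK cascade that answers bacterial flagellin, stood at 8.2, 8.66, 12.9 and 8.43 CPM in NO-SORT and 117, 186, 157 and 44.1 CPM in ALL-SORT (log2 fold change 3.73, SE 0.40, edgeR adjusted p = 3.91e-04). WRKY29, named with WRKY22 in that cascade, was below the count limit with 64 counts in all 15 libraries. WRKY48 (group IIc), a known negative regulator of resistance to Pseudomonas bacteria, stood at 2.75, 3.19, 4.99 and 2.99 CPM in NO-SORT and 51.8, 62.5, 69.9 and 18.2 CPM in ALL-SORT (log2 fold change 3.87, SE 0.40, edgeR adjusted p = 3.62e-04). For both genes ALL-SORT replicate 4 was lowest of its group and above all NO-SORT libraries, and without it the log2 fold changes were 4.01 for WRKY22 and 4.15 for WRKY48. WRKY23 (group IIc), known from auxin-dependent root and embryo patterning, was called by a narrow margin, at 7.54, 6.16, 7.6 and 7.56 CPM in NO-SORT and 11.1, 13.5, 22.6 and 8.53 CPM in ALL-SORT (log2 fold change 0.96, SE 0.27, edgeR adjusted p = 0.0453). The call was lost in 11 of 18 alternative settings, at a log2 fold change of 0.62 without ALL-SORT replicate 3. WRKY6 (group IIb), known from senescence and phosphate homeostasis, stood at 1.64, 1.14, 0.669 and 1.05 CPM in NO-SORT and 2.17, 5, 9.02 and 2 CPM in ALL-SORT (log2 fold change 2.01, SE 0.52, edgeR adjusted p = 0.0312), with ALL-SORT replicate 3 highest. It lost its call in 7 of 18 settings, at a log2 fold change of 1.44 without that library.

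Group IId, the calmodulin-binding WRKY proteins, gave smaller steps from a higher start. WRKY11 and WRKY17, known to act together as negative regulators of basal defence and 79.3% identical in protein, were both present in intact tissue. WRKY11 stood at 43.5, 40.5, 45 and 43.4 CPM in NO-SORT and 95.1, 142, 123 and 60.3 CPM in ALL-SORT (log2 fold change 1.30, SE 0.22, edgeR adjusted p = 0.00424). WRKY17 stood at 22.8, 20.5, 20.1 and 20 CPM in NO-SORT and 57.8, 71.8, 70.2 and 30.8 CPM in ALL-SORT (log2 fold change 1.48, SE 0.23, edgeR adjusted p = 0.00258). The NO-SORT libraries lay close together and below every ALL-SORT library for both. WRKY15, known from oxidative and salt stress, rose from 25.9 ± 4.45 to 84.6 ± 31.7 CPM (SD, n = 4 each, log2 fold change 1.72, edgeR adjusted p = 0.00221), and WRKY7 from 36.1 ± 1.22 to 58.3 ± 10.2 CPM (SD, n = 4 each, log2 fold change 0.71, edgeR adjusted p = 0.00621). Without ALL-SORT replicate 4 the log2 fold changes were 1.90 for WRKY15, 1.69 for WRKY17, 1.49 for WRKY11 and 0.81 for WRKY7, and in the other groups 2.28 for WRKY70, 1.41 for WRKY54, 2.26 for WRKY6 and 1.13 for WRKY23. The other 3 group IId genes, WRKY21, WRKY39 and WRKY74, were classed stable. WRKY21 was close to a call (log2 fold change 0.35, SE 0.11, edgeR adjusted p = 0.0615), its libraries did not overlap, and it was called higher in 5 of 18 alternative settings, among them DESeq2 and the fit without ALL-SORT replicate 4. WRKY39 and WRKY74 are the most alike in protein of the pairs compared within groups, at 80.7%, but their levels differed widely, with WRKY39 at 111 ± 5.65 CPM and WRKY74 at 1.64 ± 0.221 CPM in NO-SORT (SD, n = 4).

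A tested member was classed stable when it was not called and the 95% interval of its log2 fold change lay within -1 to 1, which held for 16 members, and WRKY57 was the member left unresolved (95% interval -1.38 to 0.61). By the same rule 68.6% of all genes tested were stable. The 16 stable members together summed to 422.3 to 456.1 CPM in NO-SORT, 414.3 to 520.5 CPM in ALL-SORT, 455.3 to 516.2 CPM in YFP-NEG and 397.2 to 458.4 CPM in YFP-POS. The 17 raised members summed to 194.2 to 350.4 CPM in NO-SORT, to 2028, 2354, 2411 and 772.0 CPM in the ALL-SORT libraries, to 2557 to 3159 CPM in YFP-NEG and to 907 to 1425 CPM in YFP-POS. The sum over all 48 listed genes was 628.0 to 811 CPM in NO-SORT and 3063 to 3685 CPM in YFP-NEG. WRKY3, known for resistance to necrotrophic fungi, was the stable member nearest to a fall, at 31.1 ± 0.49 CPM in NO-SORT and 24.8 ± 3.05 CPM in ALL-SORT (SD, n = 4 each), with libraries that did not overlap (log2 fold change -0.31, SE 0.11, edgeR adjusted p = 0.0952). It was called lower with library-total scaling, with upper-quartile scaling and without ALL-SORT replicate 4 (log2 fold change -0.38, edgeR adjusted p = 0.0342). Its close relative WRKY4, 76.0% identical in protein, was not called in this comparison in any setting.

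YFP-POS was set against YFP-NEG to see how reporter-positive cells differ from the remaining sorted cells, and both groups went through digestion and sorting. Of 36 members tested, 16 were called lower and 6 higher in YFP-POS, and 14 were not called. Over all 18830 genes tested, 24.4% (4592) were called higher and 24.4% (4592) lower, and the median log2 fold change was -0.44 over the members and -0.01 over all genes. For 21 of the 22 called members the libraries of the groups did not overlap, and WRKY17 was the exception. Here too the calls came from the same libraries, and the share over all called genes was not counted. These are bulk samples, in which fewer cells of a type and less RNA per cell cannot be told apart. Markers of other floral cell types moved with the same contrast: the stamen and petal genes AP3 and PI summed to 380.6 to 432.0 CPM in YFP-NEG and 94.6 to 132.7 CPM in YFP-POS. In YFP-POS 2 of 2 sepal and inflorescence genes and both tested tapetum genes were lower, as were 2 of 3 photosynthetic genes and the 1 xylem gene tested. The tested tapetum genes DYT1 and AMS and the xylem gene XCP1 passed the filter on low counts through YFP-NEG, which favours a fall. MYB80 of the tapetum list and VND7 of the xylem list were too low for the test. The phloem pair summed to 16.9 to 63.3 CPM in YFP-NEG and 4.09 to 19.9 CPM in YFP-POS. The epidermis genes ATML1 and PDF1 summed to 373.6 to 412.2 CPM in YFP-NEG and 979 to 1356 CPM in YFP-POS. The part of these cell types in the WRKY levels was not tested.

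**Figure D2:**
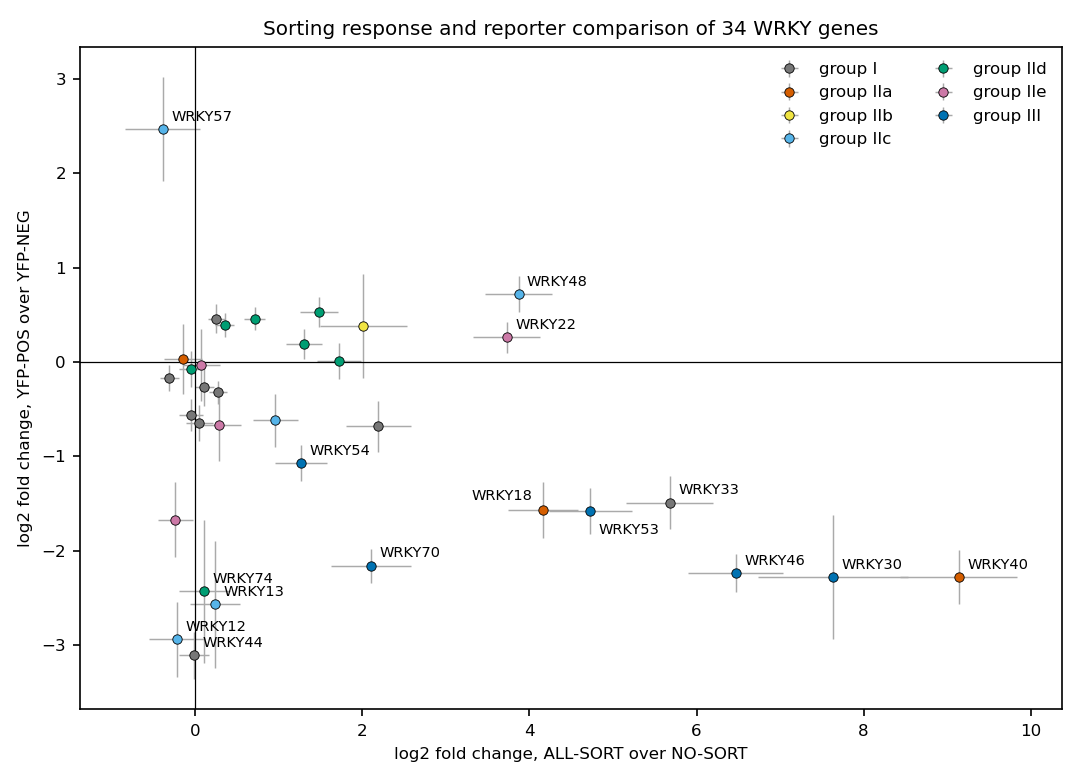
Log2 fold change of 34 WRKY genes in ALL-SORT over NO-SORT (horizontal axis) and in YFP-POS over YFP-NEG (vertical axis), coloured by WRKY group, with bars of 1 SE. The responders of groups IIa and III lie at the lower right, from 9.14 and -2.28 for WRKY40 to 1.27 and -1.07 for WRKY54, WRKY48 and WRKY22 lie at the upper right, and WRKY44 and WRKY12 lie low near a sorting change of 0.

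Among the 17 members raised by sorting, 8 were lower in YFP-POS, 3 were higher and 6 were not called, with a median log2 fold change of -0.68. All genes raised by sorting leaned the same way, with 42.3% called lower, 16.7% called higher and a median of -0.37, so the members' count lies near what that class shows as a whole. The 8 lower members were all 5 tested genes of group III, WRKY18 and WRKY40 of group IIa, and WRKY33. The stress genes outside the family moved alike, with 9 of 14 lower in YFP-POS, 0 higher and sums of 6985.0 to 9636 CPM in YFP-NEG and 3716 to 5673 CPM in YFP-POS, and their part in the members' difference was not tested.

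WRKY40 stood at 344, 385, 492 and 330.1 CPM in YFP-NEG and 45.8, 68 and 116 CPM in YFP-POS (log2 fold change -2.28, SE 0.29, edgeR adjusted p = 6.04e-05). WRKY46 stood at 621, 565, 590.1 and 499 CPM in YFP-NEG and 105, 89.2 and 156 CPM in YFP-POS (log2 fold change -2.24, SE 0.20, edgeR adjusted p = 7.00e-06). WRKY70 stood at 507, 446, 414 and 413 CPM in YFP-NEG and 74.2, 100.2 and 115 CPM in YFP-POS (log2 fold change -2.16, SE 0.18, edgeR adjusted p = 4.66e-06). For these 3 genes the highest YFP-POS library lay below the lowest YFP-NEG library by a wide margin, and YFP-POS replicate 3 was the highest of its group. WRKY70 in YFP-POS overlapped with its NO-SORT range, whereas WRKY40 and WRKY46 in YFP-POS were far above all NO-SORT libraries. WRKY60, the group IIa gene without a call in sorting, stood at 3.39, 2.99, 3.4 and 2.3 CPM in YFP-NEG and 1.69, 3.46 and 3.83 CPM in YFP-POS (log2 fold change 0.03, SE 0.37, edgeR adjusted p = 0.955).

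WRKY33 stood at 364, 488, 640.3 and 482 CPM in YFP-NEG and 103, 151 and 254 CPM in YFP-POS (log2 fold change -1.49, SE 0.28, edgeR adjusted p = 0.0011). The gap was narrower here, since YFP-POS replicate 3 reached 254 CPM and the lowest YFP-NEG library 364 CPM. WRKY18 stood at 232.5, 390.0, 351 and 305 CPM in YFP-NEG and 53.6, 102 and 154 CPM in YFP-POS (log2 fold change -1.57, SE 0.30, edgeR adjusted p = 0.00114). WRKY53 was at 55.1, 54.7, 72.8 and 61.2 CPM and 11.6, 21.8 and 25.8 CPM in the same order (log2 fold change -1.58, SE 0.24, edgeR adjusted p = 2.33e-04). All 3 genes had their lowest YFP-POS value in replicate 1 and their highest in replicate 3. WRKY54 stood at 44.5, 25.9, 31.7 and 30.3 CPM in YFP-NEG and 17.1, 14.4 and 14.6 CPM in YFP-POS (log2 fold change -1.07, SE 0.19, edgeR adjusted p = 6.09e-04). WRKY30 stood at 11.4, 14.3, 24.3 and 12.7 CPM in YFP-NEG and 0.109, 2.78 and 6.4 CPM in YFP-POS (log2 fold change -2.28, SE 0.66, edgeR adjusted p = 0.0133), with 2 counts in YFP-POS replicate 1, and DESeq2 did not call it (adjusted p = 0.0603). Its log2 fold change was -3.52 without YFP-POS replicate 3. YFP-POS replicate 1 was the lowest YFP-POS library for 14 of the 17 raised members and replicate 3 the highest for 10.

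The 3 raised members higher in YFP-POS were WRKY48, WRKY17 and WRKY7. WRKY48 stood at 40, 59.7, 81.5 and 60.5 CPM in YFP-NEG and 90.8, 97.5 and 101 CPM in YFP-POS, without overlap (log2 fold change 0.72, SE 0.19, edgeR adjusted p = 0.00754). WRKY7 stood at 49.5, 60.9, 56.1 and 55.7 CPM in YFP-NEG and 71.6, 83.2 and 68 CPM in YFP-POS, also without overlap (log2 fold change 0.46, SE 0.12, edgeR adjusted p = 0.00855). WRKY17 stood at 39.6, 50.4, 46.1 and 41.2 CPM and 48.5, 76.2 and 60.7 CPM, with YFP-POS replicate 1 inside the YFP-NEG range (log2 fold change 0.53, SE 0.16, edgeR adjusted p = 0.0178). Without YFP-POS replicate 2 neither WRKY17 nor WRKY7 was called (log2 fold changes 0.30 and 0.33, edgeR adjusted p = 0.122 and 0.0583), and with all 15 libraries in the fit WRKY48 and WRKY17 were not.

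The 6 raised members without a call were WRKY22, WRKY11, WRKY15, WRKY6, WRKY25 and WRKY23. WRKY22 stood at 91.5, 143, 117 and 121 CPM in YFP-NEG and 117, 162 and 132 CPM in YFP-POS (log2 fold change 0.26, SE 0.16, edgeR adjusted p = 0.208, 95% interval -0.09 to 0.62), so a fall of the size seen in WRKY40 lies outside its interval. WRKY11 stood at 77.1, 114.5, 121 and 113 CPM in YFP-NEG and 105, 131 and 115 CPM in YFP-POS, with a log2 fold change of 0.19 (95% interval -0.16 to 0.53), and WRKY15 had one of 0.01 (95% interval -0.41 to 0.44). The groups overlapped for these genes. WRKY25 stood at 6.14, 7.19, 6.67 and 8.01 CPM in YFP-NEG and 2.78, 5.11 and 4.8 CPM in YFP-POS (log2 fold change -0.68, SE 0.27, edgeR adjusted p = 0.0572). It was called lower in 5 of 16 alternative settings. WRKY6 stood at 1.66, 2.55, 6.36 and 4.01 CPM and 1.42, 3.99 and 8.23 CPM with overlap (log2 fold change 0.38, SE 0.55, edgeR adjusted p = 0.599). Its log2 fold change was -0.42 without YFP-POS replicate 3 and 0.82 without replicate 1. WRKY23 stood at 10.6, 14.5, 23 and 11.9 CPM in YFP-NEG and 7.53, 8.05 and 12.6 CPM in YFP-POS without a call (log2 fold change -0.62, SE 0.28, edgeR adjusted p = 0.0885). When replicate numbers entered the fit as a block it was called lower (log2 fold change -0.70, edgeR adjusted p = 0.00744).

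**Figure D3:**
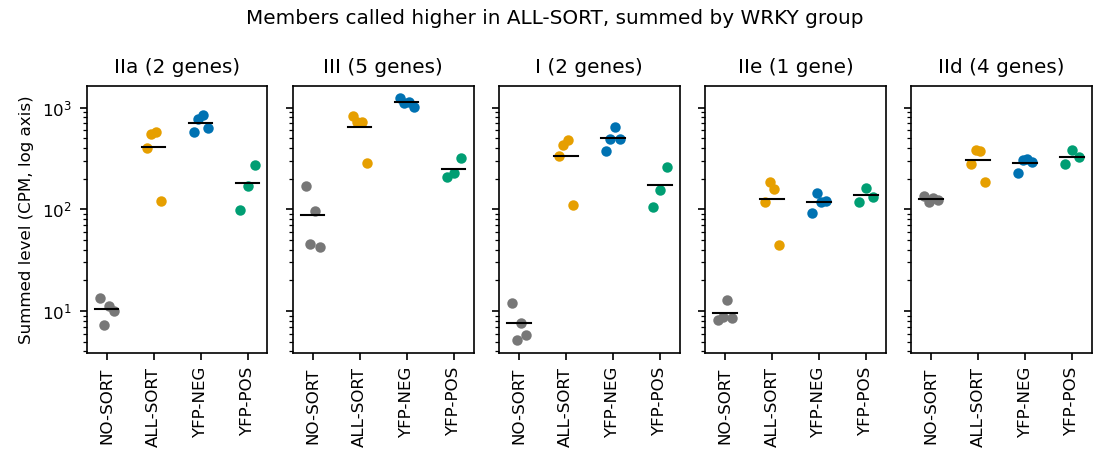
Summed level (CPM, log axis) of the members called higher in ALL-SORT, by WRKY group and library, for groups IIa, III, I, IIe and IId, with a line at each group mean. From YFP-NEG to YFP-POS the mean drops from 707 to 180 CPM for IIa, from 1124 to 251 CPM for III and from 501 to 174 CPM for I. In the same order IIe and IId stand at 118 and 137 CPM and at 284 and 329 CPM.

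Set against intact tissue, the raised members were higher in every YFP-NEG library than in every NO-SORT library for 17 of 17 genes, and in every YFP-POS library for 12 of 17. The 5 exceptions in YFP-POS were WRKY70, WRKY6, WRKY30, WRKY54 and WRKY23. The raised members were selected by a call over these same NO-SORT libraries, which favours such a separation. The same count over all genes called higher in ALL-SORT was not made. WRKY40, WRKY46, WRKY33, WRKY18 and WRKY70 together made up 7.44% to 21.9% of the summed family CPM in NO-SORT, 38.9% to 59.5% in ALL-SORT, 65.6% to 67.6% in YFP-NEG and 28.4% to 41.8% in YFP-POS.

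Among the 16 members classed stable, 8 were lower in YFP-POS, 2 were higher and 6 were not called. Over all genes classed stable, 19.3% were called lower and 28.8% higher. The 8 were WRKY44, WRKY12, WRKY13, WRKY74, WRKY35, WRKY2, WRKY32 and WRKY1, and the 2 were WRKY20 and WRKY21.

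WRKY44 (AT2G37260, chr2:15644811-15647076 in TAIR10.1), also named TTG2 and known for its role in trichomes and in the seed coat, showed the largest called fall among the listed genes. It stood at 11.9, 9.86, 11.1 and 8.2 CPM in NO-SORT, 12, 8.52, 8.69 and 11.1 CPM in ALL-SORT, 19.2, 13, 15.6 and 20.7 CPM in YFP-NEG and 1.75, 1.65 and 2.34 CPM in YFP-POS. NO-SORT and ALL-SORT overlapped, and no YFP-POS library came near any library of the other groups (log2 fold change -3.11, SE 0.25, edgeR adjusted p = 4.08e-06). Over all alternatives the log2 fold change ranged from -3.30 to -2.99.

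WRKY12, a repressor of secondary wall formation in pith that also acts in flowering time, stood at 2.89, 8.55, 6.08 and 3.75 CPM in NO-SORT and 4.81, 3.99, 5.79 and 3.54 CPM in ALL-SORT. In the sorted fractions it stood at 5.88, 7.71, 8.31 and 7.05 CPM in YFP-NEG and 1.04, 0.301 and 1.31 CPM in YFP-POS (log2 fold change -2.94, SE 0.40, edgeR adjusted p = 1.02e-04). WRKY13, known from flowering time and stem lignification, stood at 2.36, 4.39, 2.01 and 2.87 CPM in NO-SORT and 2.64, 4.06, 4.22 and 2.75 CPM in ALL-SORT. Among the sorted fractions it was at 5.5, 4.49, 4.78 and 3.34 CPM in YFP-NEG and 0.0546, 0.376 and 1.71 CPM in YFP-POS (log2 fold change -2.57, SE 0.67, edgeR adjusted p = 0.00749). The 3 YFP-POS libraries were all below YFP-NEG for both genes but differed among themselves, with replicate 3 highest, and the log2 fold change of WRKY13 was -4.45 without that library and -1.98 without replicate 1. WRKY12, WRKY13, WRKY30, WRKY35 and WRKY74 each had at least 1 YFP-POS library below 10 counts. All of these passed the filter through YFP-NEG, where they are high.

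WRKY74, at 1.85 ± 0.56 CPM in YFP-NEG (SD, n = 4) and 0.323 ± 0.381 CPM in YFP-POS (SD, n = 3), fell by 2.43 on the log2 scale (edgeR adjusted p = 0.0192), a call lost without YFP-POS replicate 2, and the log2 fold change of WRKY74 was -4.10 without YFP-POS replicate 3. Its near twin in protein, WRKY39, was not called (log2 fold change -0.07, SE 0.19, edgeR adjusted p = 0.795, 95% interval -0.48 to 0.34). WRKY35 stood at 4.64 ± 0.785 CPM in YFP-NEG and 1.39 ± 0.75 CPM in YFP-POS (SD, n = 4 and 3), a log2 fold change of -1.67 (edgeR adjusted p = 0.00436).

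WRKY2, a regulator of pollen development and of the first division of the zygote, stood at 16.3, 18.9, 19.9 and 21.7 CPM in YFP-NEG and 9.06, 11.8 and 14.6 CPM in YFP-POS, without overlap (log2 fold change -0.65, SE 0.19, edgeR adjusted p = 0.0151). The call was lost without YFP-NEG replicate 4 or YFP-POS replicate 1 (edgeR adjusted p = 0.0533 and 0.0567). Its NO-SORT and ALL-SORT levels, 24.1, 16.4, 19.5 and 17.3 CPM and 17.9, 17.2, 21 and 22.8 CPM, overlapped. Its partner in pollen, WRKY34, 63.5% identical in protein, had no counts. WRKY32 fell by 0.56 and WRKY1 by 0.32 on the log2 scale, and the WRKY1 call was lost in 7 of 16 alternative settings. WRKY20 stood at 32.9, 40.7, 51.8 and 47.4 CPM in YFP-NEG and 56.3, 58.3 and 58.7 CPM in YFP-POS (log2 fold change 0.46, SE 0.15, edgeR adjusted p = 0.0226). WRKY21 rose from 79.1 ± 11.1 CPM to 100.3 ± 3.4 CPM (SD, n = 4 and 3, log2 fold change 0.39), and the calls of WRKY20 and WRKY21 were lost in 5 and 6 of 16 settings.

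WRKY57 (AT1G69310), known from drought tolerance and jasmonate-induced senescence, had the largest called rise in YFP-POS among the listed genes. With 9, 7, 29 and 23 counts in the YFP-NEG libraries, it passed the filter on low counts through YFP-POS, so its place among the tested genes already required a high level there. It stood at 1.18, 4.73, 1.64 and 2.64 CPM in NO-SORT, 1.24, 2.16, 2.9 and 1.49 CPM in ALL-SORT, 0.575, 0.524, 1.83 and 1.71 CPM in YFP-NEG and 2.35, 6.09 and 10.2 CPM in YFP-POS. Every YFP-POS library was above every YFP-NEG library, but YFP-POS replicate 1 lay within the NO-SORT and ALL-SORT ranges (log2 fold change 2.47, SE 0.55, edgeR adjusted p = 0.0029). The 3 YFP-POS libraries spanned several fold, and the log2 fold change was 1.88 without replicate 3.

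**Figure D4:**
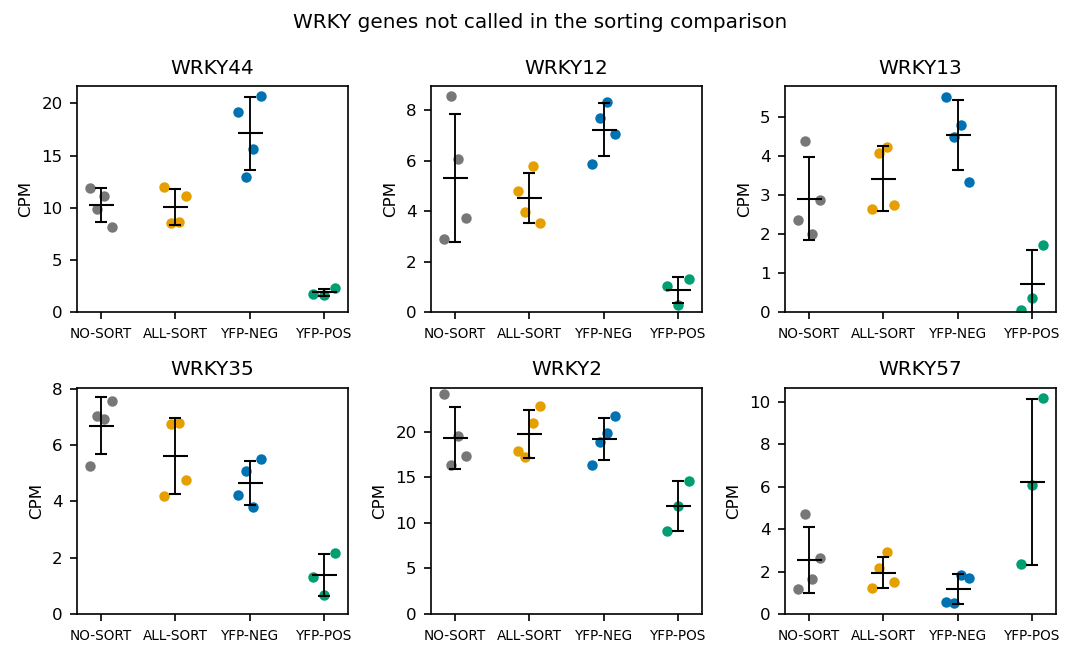
Level (CPM) of 6 WRKY genes that were not called between ALL-SORT and NO-SORT, one dot per library with the group mean and SD as black bars, in separate panels with their own axis from 0. WRKY44, WRKY12, WRKY13, WRKY35 and WRKY2 are lowest in YFP-POS (1.65 to 2.34 CPM for WRKY44), and WRKY57 has its highest mean there (libraries at 2.35 to 10.2 CPM).

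Levels of different genes were compared as CPM per kilobase of exon. In NO-SORT the order was led by WRKY70 at 50.3 ± 37.2 and WRKY39 at 49.7 ± 2.52 CPM per kilobase (SD, n = 4), which did not differ beyond their spread, followed by WRKY1 at 33 ± 0.717 and WRKY21 at 30.6 ± 2.65, whose ranges overlapped, and WRKY11 at 23.7 ± 1.04. WRKY40 was number 33 of the 48 listed genes there, at 0.318 ± 0.262. In YFP-NEG the order was WRKY46 at 420.1 ± 38.4, WRKY70 at 302.7 ± 30.1, WRKY40 at 293 ± 55.2, WRKY33 at 243 ± 55.8 and WRKY18 at 158 ± 33.4 CPM per kilobase (SD, n = 4). WRKY46 had no overlap with WRKY70, the next in this order, but its range of 368.4 to 458.7 overlapped with that of WRKY40, 249.1 to 371.2. The other neighbours among these genes overlapped. In YFP-POS, WRKY22 led with 103 ± 17.3, then WRKY46 with 86.2 ± 25.9 and WRKY33 with 83.5 ± 38.1 CPM per kilobase (SD, n = 3), with ranges that overlapped. The order in ALL-SORT was WRKY70, WRKY46, WRKY40 and WRKY33, at means between 214 and 163 CPM per kilobase with SDs of 63.5 to 104.0 (n = 4).

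W boxes were also counted by response class, with no test. At least 1 W box stood in the 250 bases before 7 of the 17 raised members (41.2%) and 3 of the 16 stable members (18.8%), and at least 2 boxes before 5 raised members and 1 stable member. Over all genes called higher in ALL-SORT with a window read, 33.7% held at least 1 box and 9.84% at least 2, and over all genes classed stable 26.6% and 5.19%. Among the 6 largest responders, WRKY30, WRKY33 and WRKY53 held boxes in the windows printed above, and WRKY40, WRKY46 and WRKY18 held none.

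The remaining members were at low levels or without a call. WRKY28, known to regulate salicylic acid synthesis, ranged from 0.243 to 0.586 CPM in NO-SORT and from 0.606 to 5.05 CPM in ALL-SORT, and was tested in ALL-SORT against NO-SORT only when the low-count filter was widened (log2 fold change 2.56, SE 0.64, edgeR adjusted p = 0.0284). WRKY28 met that filter through the sorted libraries, so its entry already required a high sorted level. WRKY26, WRKY41, WRKY42 and WRKY47 were not called in ALL-SORT against NO-SORT with the wider filter. WRKY26 stood at 0.256, 0.749, 0.629 and 0.816 CPM in YFP-NEG and 0.327, 0.602 and 1.54 CPM in YFP-POS (log2 fold change 0.50, SE 0.65, edgeR adjusted p = 0.551). Its log2 fold change was -0.38 without YFP-POS replicate 3. In YFP-POS against YFP-NEG, WRKY28, WRKY3, WRKY4, WRKY27, WRKY39, WRKY60 and WRKY69 were not called. The 9 genes below the count rule each had at most 75 counts over all 15 libraries, among them WRKY10, known from seed size in the endosperm, with 36, and WRKY75 and WRKY45, known from phosphate starvation, with 55 and 14.

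Strand bears on 10 of the listed genes, which overlap another tabulated locus on the opposite strand. The libraries were strand-specific, and whether counting used the strand is not given in the sources used here, so these levels are uncertain to that extent. The neighbours of the main responders were not called in sorting: AT1G80850 beside WRKY40 stood at 31.1 ± 1.67 CPM in NO-SORT and 31 ± 2.85 CPM in ALL-SORT (SD, n = 4 each), AT2G38480 beside WRKY33 at 3.18 ± 0.53 and 4.52 ± 1.34 CPM, and AT4G23800 beside WRKY53 at 432 ± 26.7 and 350.4 ± 95.9 CPM (SD, n = 4). AT3G58720 beside WRKY69 was called lower in YFP-POS (log2 fold change -1.62, edgeR adjusted p = 0.024), and WRKY69 was not called (log2 fold change -0.67, SE 0.38, edgeR adjusted p = 0.162). No pair of listed genes shared an identical run of 50 bases between annotated start and end, introns included.

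Genes that act before, with and after WRKY proteins were read from lists chosen by role, and their shares can be set beside the 9.84% of all genes called higher and 3.6% lower with sorting and the 24.4% called each way in the reporter comparison. Of 18 receptors and kinases upstream, 11 were called higher in ALL-SORT, 0 lower, and 4 were higher and 10 lower in YFP-POS. MPK3, the kinase that phosphorylates WRKY33, stood at 31.4 ± 10.1 CPM in NO-SORT and 238 ± 86.5 CPM in ALL-SORT (SD, n = 4 each, log2 fold change 2.94, edgeR adjusted p = 4.27e-04) and at 413 ± 34.8 and 127 ± 44.4 CPM in YFP-NEG and YFP-POS (SD, n = 4 and 3, log2 fold change -1.65, edgeR adjusted p = 6.89e-05). Its partner MPK6 was level with sorting (log2 fold change 0.02, SE 0.13) and higher in YFP-POS (0.45, SE 0.12, edgeR adjusted p = 0.00859). MKK9 rose by 3.45 and MKK4 by 1.80 on the log2 scale in ALL-SORT. The flagellin receptor FLS2 was not called in sorting (log2 fold change 0.16, SE 0.19) and fell by 1.94 in YFP-POS.

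VQ-motif proteins bind WRKY proteins and change their activity. Of 9 genes of this kind, 6 were called higher in ALL-SORT, and in YFP-POS 3 were higher and 3 lower. AT1G78410, among the 6, passed the filter on low counts through ALL-SORT. SIB1, a partner of WRKY33, rose by 3.75 on the log2 scale with sorting and fell by 1.14 in YFP-POS, and CAMBP25 rose by 4.54 with sorting without a call in YFP-POS (-0.12, SE 0.19). IKU1, which acts with WRKY10 in seed growth, was not called in sorting and was higher in YFP-POS, at 6.43 ± 1.56 CPM in YFP-NEG (SD, n = 4) and 21.4 ± 7.83 CPM in YFP-POS (SD, n = 3, log2 fold change 1.79, edgeR adjusted p = 1.82e-04).

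Of 19 listed targets and defence outputs, 11 were tested in sorting and 8 were called higher, with a median log2 fold change of 1.25. In YFP-POS, 9 of 12 tested were lower and 0 higher, with a median of -1.59. Some of these genes passed the filter on low counts through the group where they are high. Among them were NHL10 and JAZ8 through ALL-SORT and PHO1 through YFP-NEG, which favours calls in those directions. ACS6, an ethylene synthesis enzyme, stood at 16.6 ± 13.7 CPM in NO-SORT and 857 ± 403 CPM in ALL-SORT (SD, n = 4 each, log2 fold change 5.70, edgeR adjusted p = 5.88e-04). The salicylic acid regulators EDS1, PAD4 and NPR1 rose in ALL-SORT, from 36.2 ± 5.72, 6.08 ± 1.02 and 15.3 ± 3.41 CPM to 81.6 ± 20.9, 27.9 ± 11.3 and 36 ± 12 CPM (SD, n = 4), and fell by 1.53, 1.78 and 1.38 on the log2 scale in YFP-POS. The pathogenesis-related gene PR1 and the camalexin gene PAD3 were at or near 0 in all groups, with at most 0.128 CPM for PR1 and 0.189 CPM for PAD3 in any library.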

How the data were processed

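The authors deposited raw counts per locus in 2 tables, the first with the unsorted and ALL-SORT libraries and the second with the YFP fractions, 1 column for each of the 15 libraries. Per the labels, RNA with an integrity number above 7.3 went into strand-specific libraries that were sequenced single-end on 2 lanes, and how the lanes were joined is not given in the sources used here. Tools named in the submitters' processing notes are FastQC, TopHat2 2.0.10, HTSeq, edgeR, DESeq2 and Cufflinks 2.2.1, with genome build TAIR10 and no order or role. Column names gave the group of each library.

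Counts were tested with edgeR 4.0.16 in R 4.3.3 (quasi-likelihood F test, filterByExpr defaults, TMM scaling), with the compared groups alone in each fit, Benjamini-Hochberg adjustment over all genes tested and a call at an adjusted p under 0.05. The SE is the size of the log2 fold change divided by the root of F. The procedure was tested on simulated counts in which all genes had the same dispersion and no library stood apart, unlike ALL-SORT replicate 4. limma 3.58.1 voom, DESeq2 1.42.0, other scalings and filters and left-out libraries were alternatives. Coding sequences, starts and names came from RefSeq TAIR10.1, in which 32835 of 33602 loci matched.

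Members and lists were chosen with earlier results of these data known. Genes given with every library value were the 6 largest called rises and any called fall in sorting and the 5 largest called rises and falls in the reporter comparison, each averaging 5 CPM or more in its higher group, and 22 fixed names, to which WRKY35, WRKY74, WRKY15, WRKY3, WRKY21 and WRKY28 were added by group means or ranges. Replicate numbers paired YFP-POS with YFP-NEG by the data: deviations from the group means correlated at 0.28, 0.183 and 0.294 over 19460 genes. The main reporter fit did not use this pairing, and the fit with replicate numbers as a block was an alternative. For ALL-SORT with NO-SORT they correlated at -0.0802 to 0.0372, so those numbers do not pair.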

Additional observations from a re-analysis of the deposited data

Results flagged for a closer look

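Within groups of 4 libraries, the highest or lowest library was compared with its nearest neighbour by Dixon's criterion (gap over range above 0.829) for 80 groups of member levels, and 4 libraries were singled out, where chance gives about 1 in 20 groups. All 4 were NO-SORT libraries. WRKY22 stood at 12.9 CPM in NO-SORT replicate 3 and at 8.2 to 8.66 CPM in the others. WRKY20 stood at 53.8 CPM in NO-SORT replicate 1 and at 45.7 to 47.1 CPM in the others. WRKY23 stood at 6.16 CPM in NO-SORT replicate 2 and at 7.54 to 7.6 CPM in the others. WRKY26 stood at 0.79 CPM in NO-SORT replicate 3 and at 0 to 0.114 CPM in the others.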

How the results depend on the processing

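No member called in either comparison changed direction under any alternative run. In ALL-SORT against NO-SORT, 13 of 17 called members were called under all alternatives, and WRKY70, WRKY54, WRKY6 and WRKY23 lost the call under some; 14 of 17 uncalled members stayed uncalled. In YFP-POS against YFP-NEG, 13 of 22 called members were called under all alternatives and 11 of 14 uncalled members stayed so. The count higher in ALL-SORT (17) ranged from 13 without NO-SORT replicate 2 or 3 to 20 without ALL-SORT replicate 4, and the count lower (0) was 1, WRKY3, with library-total scaling and with upper-quartile scaling, and 0 to 1 when single libraries were left out. Library-total scaling moved the median over all genes from -0.04 to -0.16. The count higher in YFP-POS (6) was 3 at an adjusted p under 0.01 and 2 to 6 when single libraries were left out, 2 being without YFP-POS replicate 2. Of raised members, 8 were lower in YFP-POS, and 5 when an adjusted p under 0.01 was asked in both comparisons. That limit removed WRKY70 and WRKY54 through the sorting comparison (edgeR adjusted p = 0.0193 and 0.0266). It removed WRKY30 through the reporter comparison (edgeR adjusted p = 0.0133). Of raised members, 3 were higher in YFP-POS, or 1 to 4 when single libraries were left out. The class of stable members held 16, or 15 with DESeq2 and 11 without ALL-SORT replicate 4. With a replicate block the counts were 15 and 0 in ALL-SORT against NO-SORT, where the numbers do not pair, and 6 higher and 17 lower in YFP-POS against YFP-NEG, where WRKY23 was the call that changed. Counts below 10 in single libraries limit WRKY12, WRKY13, WRKY30, WRKY35, WRKY57 and WRKY74 in the reporter comparison.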

Other observations

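RefSeq names 72 loci of the tables as WRKY genes, of which 24 are not on the list described above, and 8 of these had at least 10 counts in 3 libraries. WRKY58 stood at 1.5 ± 0.59 CPM in NO-SORT and 4.57 ± 2.12 CPM in ALL-SORT (SD, n = 4 each, log2 fold change 1.60, edgeR adjusted p = 0.0301) and at 5.26 ± 2.41 CPM in YFP-NEG and 1.06 ± 0.397 CPM in YFP-POS (SD, n = 4 and 3, log2 fold change -2.28, edgeR adjusted p = 0.00128). WRKY51 and WRKY50 moved in opposite directions in the reporter comparison. WRKY51 stood at 2.54 ± 0.496 CPM in YFP-NEG and 7.59 ± 2.68 CPM in YFP-POS (log2 fold change 1.61, edgeR adjusted p = 0.00113), and WRKY50 at 1.52 ± 0.446 and 0.0952 ± 0.165 CPM (log2 fold change -3.76, edgeR adjusted p = 0.00331), with SDs over 4 and 3 libraries. WRKY14 and WRKY49 were also lower in YFP-POS (edgeR adjusted p = 0.00337 and 0.00646), at 11.2 ± 0.849 and 1.82 ± 0.352 CPM in YFP-NEG (SD, n = 4) and 5.57 ± 1.31 and 0.439 ± 0.192 CPM in YFP-POS (SD, n = 3). WRKY49 and WRKY50 passed the filter on low counts through YFP-NEG, so their place in that test already required a high level there. WRKY19, TTR1 and RRS1 were called in neither comparison. The latter pair encodes immune receptors that carry a WRKY domain, and they stood at 22.2 ± 3.09 and 14 ± 0.398 CPM in YFP-NEG (SD, n = 4) and 22.6 ± 5.65 and 17.7 ± 2.59 CPM in YFP-POS (SD, n = 3).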
